A study of Mus musculus with 9 samples.

Results

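The genes described here are a module of 34 genes of endoplasmic reticulum (ER) stress and the integrated stress response, out of 23183 gene symbols measured in each liver. A gene was a member when its symbol was on the module's list and its value was above 0 in at least 1 liver. All 34 genes were above 0 in all 9 livers. By role they are 14 ER chaperones and folding enzymes, 4 genes for the sensors of the unfolded protein response (UPR) and Xbp1, 6 genes of ER-associated degradation, and 10 genes on the side of the transcription factors ATF4 and CHOP. The question was how these genes differed between the diets and with PRF, and whether the chaperones and the ATF4/CHOP-side genes did so alike.

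Livers came from male mice of the inbred strain C57BL/6J, labelled as post natal day 100, with 3 mice per group and 1 library for each mouse. ND mice (numbers 6, 7 and 9) ate a normal diet with 14% fat, and HFD mice (1, 2 and 3) a high-fat diet with 60% fat, in both cases for 10 weeks. PRF 50 mice (3, 9 and 10) ate the high-fat diet for the same 10 weeks and were given PRF by mouth at 50 mg/kg of body weight each day of the last 5 weeks. PRF is a polymethoxyflavone-rich fraction, the hexane fraction of a hot-water extract of leaves of the citrus Jinkyool (Citrus sunki). Whether ND and HFD mice received the vehicle is not given in the sources used here. All mice had fasted for 8 h, and a mouse number names an animal within its group only.

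Expression is given throughout as log2(FPKM + 1), where FPKM is the length- and depth-scaled fragment count of a gene, so that levels can be compared between genes as well as between mice. Read counts were not used here and the absolute depth is unknown. Relative depth, estimated from low values with HFD mouse 1 set to 1, was 1.16 and 1.59 in HFD mice 2 and 3. It was 1.06, 1.15 and 1.11 in ND mice 6, 7 and 9 and 0.979, 1.52 and 0.959 in PRF 50 mice 3, 9 and 10, so the groups overlapped. The highest value of any gene was 22.4 log2(FPKM + 1) in HFD mouse 2, against 14.1 to 14.6 in the other livers. The reason for this value is not known. As a check of the tissue, 8 of 9 hepatocyte markers were above 0 in every liver, led by Apoa1, and the markers summed to between 16111 and 24476 FPKM per liver. The albumin gene Alb was listed at 0 in all 9 livers, so a listed 0 is not evidence of a silent gene. A difference between groups is a difference of mean log2(FPKM + 1), tested with limma over all genes that averaged 1 FPKM or more in the 6 mice compared. Because 1 is added to FPKM, differences of low genes come out too small. A gene was said to rise or fall only at a Benjamini-Hochberg adjusted p under 0.05.

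Secreted and membrane proteins fold in the ER, and hepatocytes, which make most plasma proteins, carry a large load of them. When unfolded proteins build up, the sensors IRE1 (Ern1), PERK (Eif2ak3) and ATF6 start the UPR: IRE1 splices Xbp1 mRNA so that it codes for an active transcription factor, and XBP1 and ATF6 together drive genes for chaperones and ER-associated degradation. PERK, like the kinases that sense lack of amino acids, phosphorylates the initiation factor eIF2, which lowers general translation and favours that of ATF4, the driver of CHOP (Ddit3) and of genes for amino acid supply and recovery of translation.

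The chaperones were the most abundant part of the module. Their mean level over the 9 livers ran from 3.34 log2(FPKM + 1) for Creld2 to 8.12 for Hsp90b1, the ER member of the HSP90 family, with a median of 5.68. The lectin chaperone gene Calr and Hspa5, which codes for the main ER chaperone BiP, were near the top of this range. The ATF4/CHOP-side genes were less abundant, from 0.81 for Atf3 to 5.62 for Eif4ebp1, with a median of 2.24. Of the genes of ER-associated degradation, Herpud1 was the highest at 7.42 and Derl3 the lowest at 1.30. The sensors were low next to Xbp1, from 1.72 for Eif2ak3 to 6.49 for Xbp1 itself.

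Genes also differed in how steady they were between mice. The difference between the highest and lowest of the 9 livers was between 0.28 and 1.37 on the log2 scale for the chaperones. The widest of these was that of Sdf2l1, which codes for a partner of ER chaperones. For the ATF4/CHOP-side genes it was between 0.59 and 2.83, the widest being that of Eif4ebp3, which codes for an inhibitor of cap-dependent translation. Derl3, a gene of the degradation pathway, had the widest range over the 9 livers, 3.16, while by the SD within groups Eif4ebp3 was the least steady, at 0.937 against 0.855 for Derl3. The heat map of the module shows these patterns for each mouse.

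**Figure D1:**
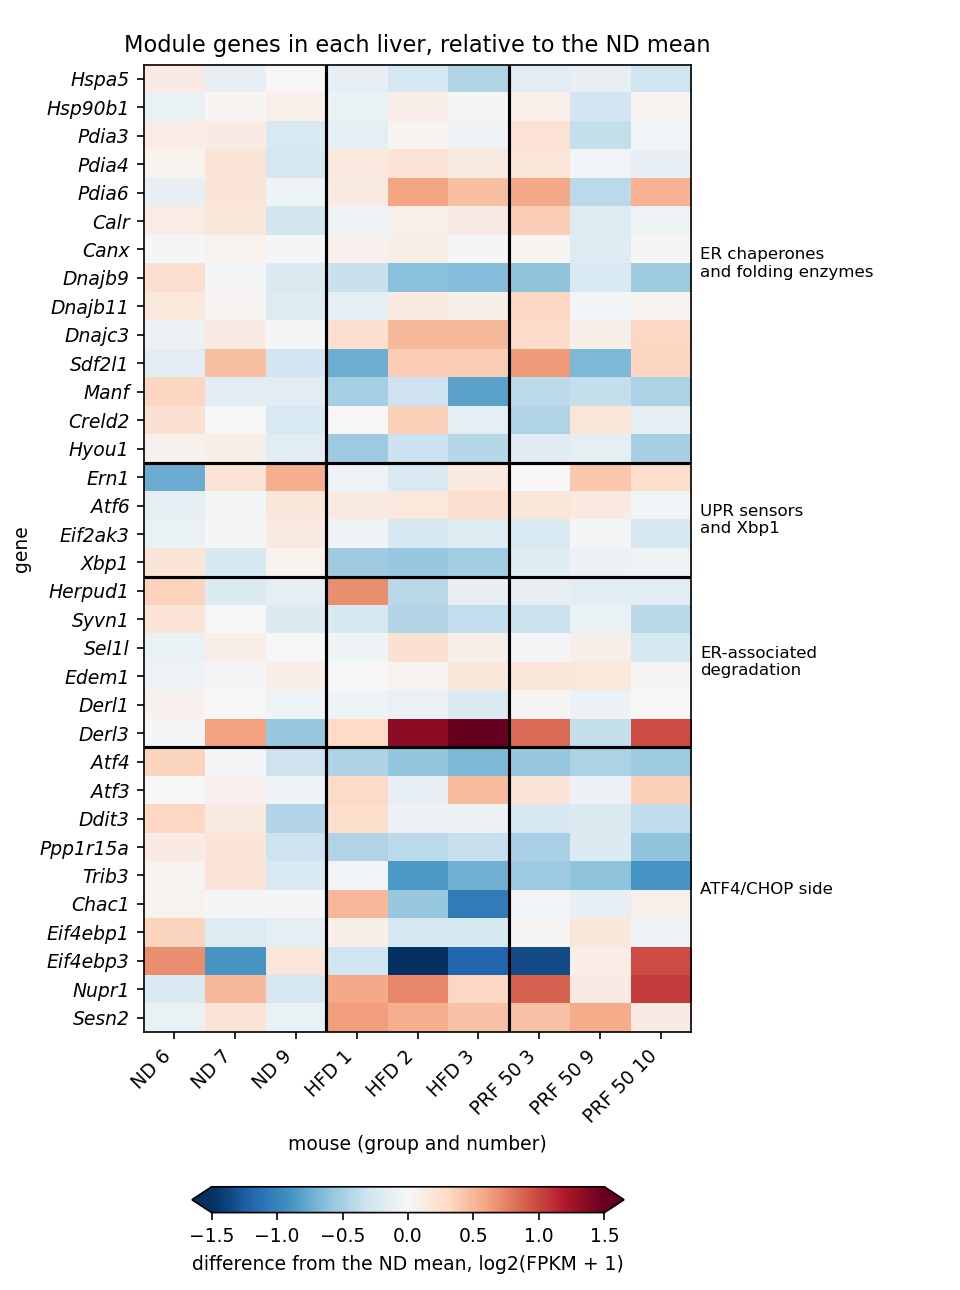
Heat map of the 34 genes (vertical axis, ordered by role) in the 9 livers (horizontal axis, by group and mouse number), coloured by the difference from the ND mean in log2(FPKM + 1), with the scale ending at -1.5 and 1.5. Xbp1, Dnajb9, Hyou1 and Atf4 are blue in all 3 HFD livers, and Dnajc3 and Sesn2 are red in all 3.

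Promoters of chaperones and of ATF4/CHOP-side genes were searched for known motifs of the response. RefSeq promoters of build GRCm38.p6, from 250 bases before to 50 bases after the transcription start, were matched by symbol for 28 of the 34 members. Manf, Hyou1, Atf6, Derl1, Eif4ebp1 and Eif4ebp3 were not matched. Both strands were searched for the ER stress element (ERSE: CCAAT, 9 unspecified bases, CCACG), for ERSE-II (ATTGG, 1 unspecified base, CCACG), for the C/EBP-ATF response element (CARE, TGATGNAA) and for the core of the UPR element (TGACGTGG). ERSE and ERSE-II share CCACG, whose reverse complement CGTGG is also part of the UPR element core. ERSE was found in 7 of 12 chaperone promoters (Hspa5, Hsp90b1, Calr, Canx, Pdia6, Dnajc3 and Creld2), in 2 of 5 degradation promoters (Syvn1 and Derl3), in 0 of 3 promoters of Xbp1 and the sensors, and in 0 of 8 ATF4/CHOP-side promoters, against 0.119% of all 32851 promoters. CARE was found in 4 of 8 ATF4/CHOP-side promoters (Atf3, Trib3, Chac1 and Nupr1) and in that of Herpud1, against 3.97% of all. ERSE-II was found in Herpud1 and Dnajb11, against 0.0365% of all, and the UPR element core in 0 of 28, against 0.676%. None of the 4 motifs was found in 4 chaperone promoters (Pdia3, Pdia4, Dnajb9 and Sdf2l1) or in 4 ATF4/CHOP-side promoters (Atf4, Ddit3, Ppp1r15a and Sesn2). A match describes letters in this window and is not a test of binding.

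The 250 bases before the start are shown for 5 genes, chosen after their values were seen as examples of these motifs and of their absence, all on the plus strand of GRCm38.p6 and read from the start-distal end to the base before the start. Dnajc3 (chr14:118937682-118937931) and Syvn1 (chr19:6046326-6046575) have an ERSE and lay on opposite sides of the ND livers in the HFD group. Herpud1 (chr8:94386179-94386428) has both an ERSE-II and a CARE, and Chac1 (chr2:119350992-119351241) has a CARE. Xbp1 (chr11:5520391-5520640), the gene that passed the adjusted test, has none of the 4 motifs. Capitals mark the specified bases of a match, with CARE on the reverse strand in both genes.
Dnajc3: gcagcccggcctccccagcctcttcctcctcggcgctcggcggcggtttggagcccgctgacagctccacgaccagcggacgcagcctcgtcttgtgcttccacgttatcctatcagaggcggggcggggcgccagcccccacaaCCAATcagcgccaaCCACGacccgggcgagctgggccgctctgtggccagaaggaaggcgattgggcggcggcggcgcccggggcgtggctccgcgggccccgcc
Syvn1: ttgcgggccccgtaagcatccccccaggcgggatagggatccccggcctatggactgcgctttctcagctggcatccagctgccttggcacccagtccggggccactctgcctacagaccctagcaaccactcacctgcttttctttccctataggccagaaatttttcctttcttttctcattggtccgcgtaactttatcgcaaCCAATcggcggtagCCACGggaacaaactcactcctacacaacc
Herpud1: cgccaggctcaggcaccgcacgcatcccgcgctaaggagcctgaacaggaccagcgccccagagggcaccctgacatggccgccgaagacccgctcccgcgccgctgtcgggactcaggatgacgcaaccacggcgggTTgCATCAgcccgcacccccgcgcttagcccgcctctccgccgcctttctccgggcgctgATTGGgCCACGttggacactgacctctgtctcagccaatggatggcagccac
Chac1: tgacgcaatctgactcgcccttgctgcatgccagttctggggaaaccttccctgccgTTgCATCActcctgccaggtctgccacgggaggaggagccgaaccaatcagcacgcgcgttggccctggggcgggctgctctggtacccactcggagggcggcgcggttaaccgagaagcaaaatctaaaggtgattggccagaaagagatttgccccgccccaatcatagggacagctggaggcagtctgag
Xbp1: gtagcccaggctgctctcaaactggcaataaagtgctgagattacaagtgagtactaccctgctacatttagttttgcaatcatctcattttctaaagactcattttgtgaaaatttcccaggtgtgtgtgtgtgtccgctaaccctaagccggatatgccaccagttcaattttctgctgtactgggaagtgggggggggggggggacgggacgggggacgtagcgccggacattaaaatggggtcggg
Counted back from the start, the ERSE begins at -105 in Dnajc3 and at -44 in Syvn1, the ERSE-II at -52 in Herpud1, and the CARE at -112 in Herpud1 and -193 in Chac1.

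The high-fat diet was compared with the normal diet first. In HFD livers the UPR transcription factor gene Xbp1, the ISR factor gene Atf4 and the chaperone genes Dnajb9, Manf and Hyou1 were lower than in every ND liver, while the co-chaperone gene Dnajc3 and the stress gene Sesn2 were higher than in every ND liver. The differences of these genes were between 0.41 and 0.57 on the log2 scale in size. Syvn1, Ppp1r15a, Hspa5 and Derl1 were also lower than in every ND liver, with smaller differences. None of these genes passed the adjusted test. The share of all genes without overlap was not counted, so nothing is read from a lack of overlap in this or the other comparisons. With limma, 0 of the 33 members tested were called at an adjusted p under 0.05, against 1.33% of the 9978 genes tested. At an unadjusted p under 0.05, 5 members were higher, against 7.82% of all genes, and 9 were lower, against 7.26%. Of these, 2 members also passed a fold change of 2, Derl3 and Eif4ebp3, against 1.34% of all genes. Nothing is read from this count. Derl3 passed the minimum level through its HFD livers, and both genes lost their unadjusted p under 0.05 without that level. In both directions together, 42.4% of the members and 15.1% of all genes had an unadjusted p under 0.05. These 14 members became 7 without HFD mouse 2, 8 without HFD mouse 3 and 8 without ND mouse 6. The share of all genes went from 15.1% to 9.94%, 9.68% and 15.4% in these fits, so the first 2 drops came with a drop over all genes. Without a minimum level, Derl3, Eif4ebp3, Nupr1 and Trib3 were no longer among the 14, and the share of all genes was 11.8%. In bulk liver, fewer cells of a type and less RNA per cell cannot be told apart.

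Among the chaperones, Dnajb9, whose product ERdj4 brings clients to BiP, was at 5.55, 5.27 and 5.09 log2(FPKM + 1) in ND mice 6, 7 and 9 and at 4.98, 4.67 and 4.65 in HFD mice 1, 2 and 3. Hyou1, the gene of an ER chaperone that serves BiP as exchange factor, was at 3.96, 3.98 and 3.73 in ND livers and at 3.35, 3.57 and 3.46 in HFD livers. Manf, which codes for a secreted ER stress protein, was at 5.08, 4.59 and 4.60 in ND livers and at 4.26, 4.44 and 3.95 in HFD livers. In each of the 3 genes, every HFD liver lay below every ND liver. The log2 fold change was -0.54 (SE 0.149) for Dnajb9, -0.43 (SE 0.112) for Hyou1 and -0.54 (SE 0.177) for Manf. Their limma adjusted p-values were 0.154, 0.137 and 0.217.

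Dnajc3 codes for p58IPK, a BiP co-chaperone that also inhibits PERK, and it lay on the other side of the ND livers. It was at 5.18, 5.39 and 5.24 log2(FPKM + 1) in ND livers and at 5.51, 5.76 and 5.76 in HFD livers, without overlap, with a log2 fold change of 0.41 (SE 0.115, limma adjusted p = 0.159). The disulfide isomerase gene Pdia6 was at 6.41, 6.73 and 6.46 in ND livers and 6.67, 7.13 and 6.99 in HFD livers. These overlapped, and the log2 fold change of Pdia6 was 0.39 (limma adjusted p = 0.294). So the 14 chaperones held 2 genes higher and 3 lower at an unadjusted p under 0.05, and after quantile normalization 1 higher and 4 lower. Their median log2 fold change was 0.01 against -0.01 for all genes, and its sign depended on single mice. It was -0.085 without ND mouse 9, -0.058 without HFD mouse 2, -0.0039 without HFD mouse 3 and 0.082 without HFD mouse 1.

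Hspa5, the usual marker of the UPR, was at 7.68, 7.44 and 7.55 log2(FPKM + 1) in ND livers and at 7.43, 7.29 and 7.11 in HFD livers. Each HFD value lay below each ND value, with HFD mouse 1 and ND mouse 7 close together. Its log2 fold change was -0.28 (SE 0.130, limma adjusted p = 0.364). The other 8 chaperones (Hsp90b1, Pdia3, Pdia4, Calr, Canx, Dnajb11, Sdf2l1 and Creld2) had log2 fold changes between -0.05 and 0.16. Over the 14 chaperones, 95% confidence intervals reached from -0.95 for Manf to 0.74 for Pdia6.

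Xbp1 was at 6.90, 6.46 and 6.75 log2(FPKM + 1) in ND mice 6, 7 and 9 and at 6.17, 6.14 and 6.18 in HFD mice 1, 2 and 3. The HFD mice were close together and all below the ND mice. Its log2 fold change was -0.54 (SE 0.131, 95% confidence interval -0.84 to -0.24), with a limma adjusted p of 0.116. These values are for the whole gene, so the spliced and unspliced mRNA of Xbp1 cannot be told apart. Of the sensors, Ern1 was at 1.65, 2.59 and 2.94 in ND livers and 2.31, 2.16 and 2.54 in HFD livers, with overlap. Atf6 and Eif2ak3 had log2 fold changes of 0.18 and -0.17, and the 95% confidence intervals of all 3 sensors included 0. With a mouse left out, limma had Ern1 at an unadjusted p under 0.05 without ND mouse 6, and Atf6 without ND mouse 9.

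The degradation genes did not share 1 direction. Syvn1, the gene of the ubiquitin ligase HRD1, was at 3.84, 3.65 and 3.44 log2(FPKM + 1) in ND livers and 3.41, 3.21 and 3.28 in HFD livers, without overlap, and its log2 fold change was -0.35 (SE 0.126, limma adjusted p = 0.260). Derl3, which codes for a derlin of the ER membrane, was at 0.63, 1.26 and 0.09 in ND livers and at 0.97, 2.0 and 3.25 in HFD livers. The groups overlapped at the low level of this gene, and its log2 fold change of 1.41 (SE 0.537) had a limma adjusted p of 0.282. It was 0.82 without HFD mouse 3 and 2.48 with 0.1 in place of 1 added to FPKM. Derl3 passed the minimum level through its HFD livers, at 4.16 FPKM on average against 0.67 in ND livers, and without a minimum level it was no longer among the members at an unadjusted p under 0.05. Herpud1, a UPR target that helps to assemble the degradation complex, was at 7.80, 7.24 and 7.32 in ND livers and 8.15, 7.04 and 7.33 in HFD livers. HFD mouse 1 was the highest and HFD mouse 2 the lowest of these 6, and the log2 fold change was 0.05 (SE 0.284). It was -0.27 without HFD mouse 1, -0.05 without ND mouse 7 and -0.02 without ND mouse 9. Sel1l, Edem1 and Derl1 had log2 fold changes of 0.09, 0.07 and -0.13.

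On the ATF4/CHOP side, Atf4 itself was at 5.92, 5.56 and 5.28 log2(FPKM + 1) in ND mice and 5.13, 4.99 and 4.91 in HFD mice. Every HFD value was below every ND value. Atf4 had a log2 fold change of -0.57 (SE 0.165, limma adjusted p = 0.169), which concerns its mRNA, while translation of ATF4 was not measured. Sesn2, which codes for a brake on mTORC1 signalling, was at 1.08, 1.38 and 1.08 in ND livers and at 1.81, 1.72 and 1.62 in HFD livers. It was higher in 3 of 3 HFD mice than in any ND mouse, with a log2 fold change of 0.54 (SE 0.131, limma adjusted p = 0.118).

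Ppp1r15a codes for GADD34, which directs the dephosphorylation of eIF2. It was at 2.47, 2.54 and 2.03 log2(FPKM + 1) in ND livers and at 1.90, 1.94 and 2.0 in HFD livers, without overlap, with a log2 fold change of -0.40 (limma adjusted p = 0.263). Trib3, the gene of a pseudokinase induced by ATF4 and CHOP, was at 2.86, 3.01 and 2.60 in ND livers and 2.78, 1.96 and 2.10 in HFD livers. HFD mouse 1 lay among the ND mice, and the log2 fold change was -0.54 (limma adjusted p = 0.305). Nupr1, a stress gene of chromatin, was at 1.21, 1.93 and 1.19 in ND livers and at 2.02, 2.16 and 1.76 in HFD livers, with overlap, a log2 fold change of 0.53 and a limma adjusted p of 0.305.

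Ddit3, the gene of CHOP, was at 3.10, 2.92 and 2.35 log2(FPKM + 1) in ND livers and at 3.06, 2.70 and 2.70 in HFD livers. Its groups overlapped. Its log2 fold change was 0.03 (SE 0.201, 95% confidence interval -0.43 to 0.49), and it was -0.09 without HFD mouse 1 and -0.19 without ND mouse 9. Eif4ebp3 was at 5.65, 4.07 and 5.14 in ND livers and 4.65, 3.11 and 3.76 in HFD livers, with overlap, and had a log2 fold change of -1.11 (SE 0.467, limma adjusted p = 0.318). It was -0.74 without HFD mouse 2 and -0.76 without ND mouse 6. Atf3 was under the minimum level and was not tested in any comparison. It was at 0.69, 0.76 and 0.63 in ND livers, at 0.98, 0.56 and 1.17 in HFD livers and at 0.89, 0.61 and 1.04 in PRF 50 livers, so that the groups overlapped. Chac1, which codes for a glutathione-degrading enzyme, and Eif4ebp1, a translation inhibitor gene, had log2 fold changes of -0.37 and -0.14. Both values depended on single mice. Chac1 was at 2.03, 1.94 and 1.96 in ND livers and at 2.47, 1.41 and 0.93 in HFD livers. In limma its unadjusted p was under 0.05 without HFD mouse 1. Eif4ebp1 was at 5.99, 5.46 and 5.51 in ND livers and at 5.74, 5.39 and 5.42 in HFD livers, with ND mouse 6 the highest.

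Side by side, the chaperones and the ATF4/CHOP-side genes differed in their medians between HFD and ND livers. The median log2 fold change of the 9 tested ATF4/CHOP-side genes was -0.37, with 2 higher and 4 lower at an unadjusted p under 0.05, and that of the 14 chaperones was 0.01. Without a minimum level, Nupr1, Trib3 and Eif4ebp3 no longer had an unadjusted p under 0.05. Nor did Nupr1 and Eif4ebp3 in the fit of all 9 mice. The difference between the lists was not tested. Without HFD mouse 3, the ATF4/CHOP-side median was -0.09.

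**Figure D2:**
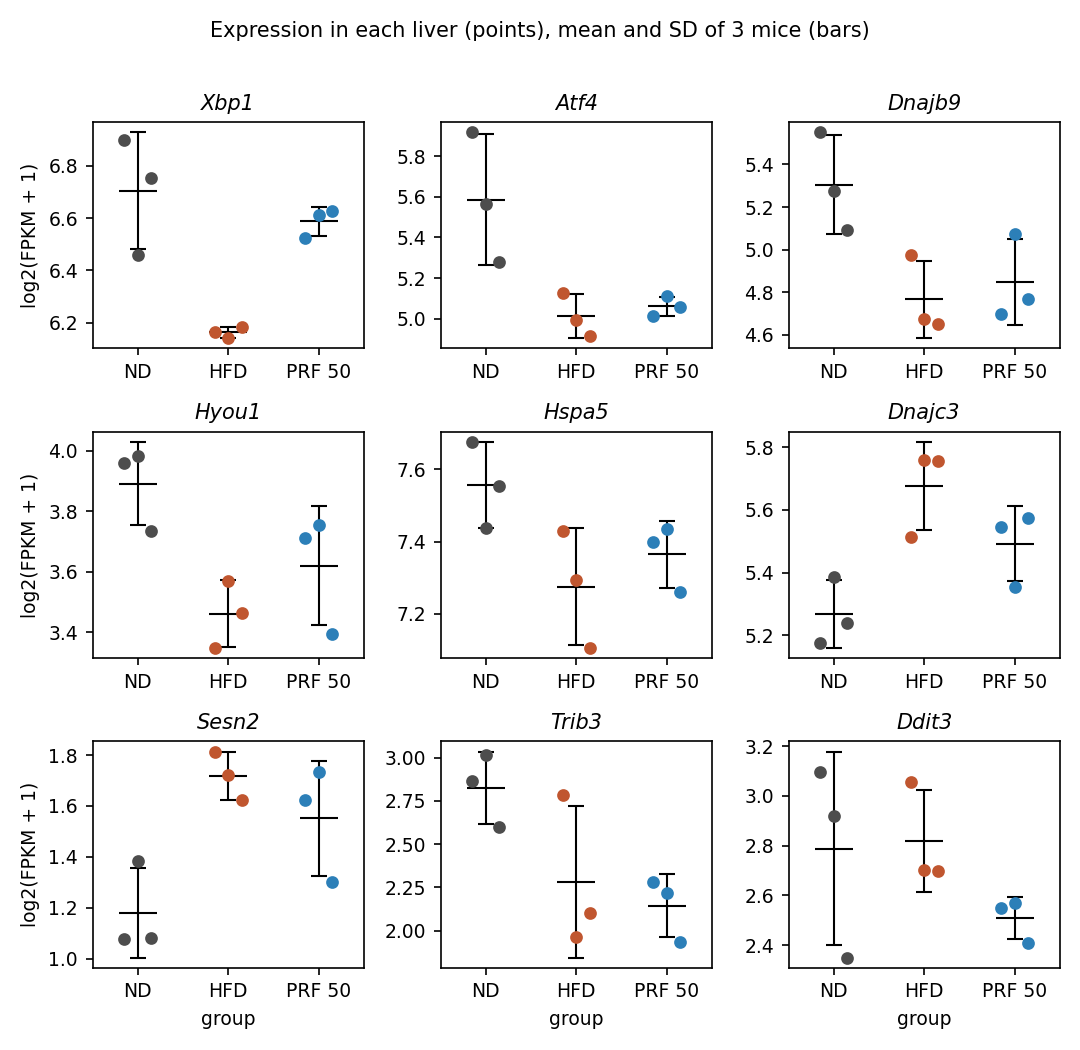
Expression of 9 genes in log2(FPKM + 1) (vertical axes) by group (horizontal axes), with 1 point per liver and bars for the mean and SD of 3 mice. The HFD points of Xbp1 lie together under those of both other groups, and the Atf4 points of HFD and PRF 50 livers lie under the ND points.

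PRF 50 livers were then compared with HFD livers, which shows the difference that goes with PRF on the same diet. Xbp1 rose in PRF 50 livers by 0.42 on the log2 scale, or 1.34-fold on the scale of FPKM + 1. No chaperone and no ATF4/CHOP-side gene passed the adjusted test. With limma, 1 of the 33 members tested was called, against 3.59% of the 10084 genes tested, a share close to that of the module. At an unadjusted p under 0.05, 1 member was higher (Xbp1), against 8.47% of all genes, and 1 was lower (Ddit3), against 11.8%. Limma gave 0 members that also passed a fold change of 2, against 2.1% of all genes. The 2 members at an unadjusted p under 0.05 became 5 without HFD mouse 1 and 4 without PRF 50 mouse 3, where 19.5% and 16.6% of all genes were at that level, and 4 after quantile normalization. This comparison and the one before share the 3 HFD mice, so their values are not independent.

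Xbp1 was at 6.17, 6.14 and 6.18 log2(FPKM + 1) in HFD mice 1, 2 and 3 and at 6.52, 6.61 and 6.63 in PRF 50 mice 3, 9 and 10. All 3 PRF 50 livers lay above all 3 HFD livers and within the range of the ND livers, from 6.46 to 6.90. Means were 6.16 ± 0.02 (SD, n = 3) in HFD livers, 6.59 ± 0.06 in PRF 50 livers and 6.70 ± 0.22 in ND livers. The log2 fold change of 0.42 had an SE of 0.0795, a 95% confidence interval of 0.24 to 0.61 and a limma adjusted p of 0.0373. With 1 mouse fewer, the call was lost each time. The limma adjusted p was 0.0691, 0.140 and 0.121 without HFD mouse 1, 2 and 3, and 0.0858, 0.0845 and 0.0844 without PRF 50 mouse 3, 9 and 10. In a limma fit of all 9 mice the adjusted p was 0.0838, and over all 7 settings other than a left-out mouse it was between 0.0299 and 0.0838. The log2 fold change stayed between 0.40 and 0.46 with a mouse left out, while the number of all genes called at an adjusted p under 0.05 went from 362 to between 15 and 242.

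Genes of other cells and of secreted proteins are given beside this result. Kupffer cells are the resident macrophages of the liver, and 7 of their 8 markers rose in PRF 50 livers against HFD livers at an adjusted p under 0.05 in limma, with all 8 above a fold change of 2. All 8 were higher at an unadjusted p under 0.05, against 8.47% of all genes. The markers of smallest p were Timd4 (log2 fold change 1.49, limma adjusted p = 0.0150), Vsig4 (1.27, 0.0182) and Csf1r (1.40, 0.0256), each higher in 3 of 3 PRF 50 mice than in any HFD mouse. Their calls ended with some mice left out: the limma adjusted p was 0.0560 without HFD mouse 3 and 0.0520 without PRF 50 mouse 3 for Timd4, and 0.0592, 0.0529 and 0.0555 without HFD mouse 2, HFD mouse 3 and PRF 50 mouse 3 for Vsig4. For Csf1r it was 0.0592, 0.0719, 0.0758 and 0.0501 without HFD mouse 2, HFD mouse 3, PRF 50 mouse 3 and PRF 50 mouse 10, and over the other settings the 3 genes were between 0.00762 and 0.0621. Summed over the 8 markers, the level was 71.2, 122 and 123 FPKM in HFD mice 1, 2 and 3, 419, 252 and 275 FPKM in PRF 50 mice 3, 9 and 10, and 60.3, 111 and 148 FPKM in ND mice 6, 7 and 9. The most abundant marker was Cd5l in each liver, and no marker was listed at 0. Acute-phase genes, which code for plasma proteins that hepatocytes secrete in inflammation, had a log2 fold change above 0 in 20 of 20 genes, with a median of 0.81, and 6 had an unadjusted p under 0.05. Among all genes 47.0% were above 0 and 8.47% were higher at an unadjusted p under 0.05. PRF 50 mice 3 and 9 carried this difference, since they lay above every HFD liver in 20 and 18 of the 20 genes, while PRF 50 mouse 10 did so in 3 and lay below every HFD liver in 10. The shares of all genes in which a single mouse lay above or below every HFD liver were not counted. Saa2 was at 7.73, 6.03 and 6.63 log2(FPKM + 1) in HFD mice 1, 2 and 3 and at 11.51, 10.47 and 5.21 in PRF 50 mice 3, 9 and 10, and was chosen after its values were seen. Several genes of both lists are on the study's own list, drawn from these libraries. Among the Kupffer cell markers they are Vsig4, Csf1r, Clec4f, Cd5l, Marco and C1qa. Among the acute-phase genes they are Lcn2, Lrg1, Saa1, Saa2, Hp, Hpx, Lbp and Orm2. The part of these genes in the Xbp1 result was not tested.

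Antibody-secreting and pancreatic acinar cells are other cell types with a large ER, and the summed levels of their markers rested on 1 gene each. The 8 plasma cell markers summed to between 34.5 and 57.5 FPKM per liver, and to between 0.765 and 3.64 FPKM without Sdc1, and in PRF 50 livers the 1 marker with an unadjusted p under 0.05, Jchain, had a log2 fold change of 1.09 (limma adjusted p = 0.0524). Jchain was tested because of its PRF 50 livers, at 2.25 FPKM on average against 0.48 in HFD and 0.56 in ND livers, and was not tested in HFD vs ND. The 13 acinar markers summed to between 15.0 and 44.2 FPKM, or between 0.0737 and 1.24 FPKM without Cela1, and 7 of them (Cela3b, Prss1, Prss2, Cpa1, Cpb1, Amy2a5 and Ptf1a) were listed at 0 in all livers, which in these files is not evidence of a silent gene. The 6 cholangiocyte markers, led by Spp1, summed to between 25.6 and 41.5 FPKM.

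Markers of endothelium, stellate cells and hepatocytes are given by their counts and medians. The 7 sinusoidal endothelium markers, led by Clec4g, summed to 59.0, 76.5 and 98.5 FPKM in ND mice 6, 7 and 9, to 22.2, 52.7 and 75.6 FPKM in HFD mice 1, 2 and 3 and to 60.9, 55.9 and 92.3 FPKM in PRF 50 mice 3, 9 and 10. Log2 fold changes were below 0 in 6 of the 7 in HFD vs ND (median -0.53), above 0 in 5 in PRF 50 vs HFD (0.51) and below 0 in 4 in PRF 50 vs ND (-0.19). The 8 stellate cell markers, led by Dcn, summed to 63.6, 84.8 and 112 FPKM in ND, 89.9, 115 and 93.2 FPKM in HFD and 84.3, 107 and 143 FPKM in PRF 50 livers. Of these, 6 of 8 were above 0 in HFD vs ND (median 0.23), 5 of 8 in PRF 50 vs HFD (0.12) and 7 of 7 tested in PRF 50 vs ND (0.43). Of 8 tested hepatocyte markers, 6 were below 0 in HFD vs ND (median -0.20), 5 were above 0 in PRF 50 vs HFD (0.14) and 5 were below 0 in PRF 50 vs ND (-0.18). After quantile normalization 4 of the 8 hepatocyte markers were below 0 in HFD vs ND (median -0.14). Their medians were then 0.16 in PRF 50 vs HFD and -0.056 in PRF 50 vs ND. Among all genes the shares above 0 were 48.3%, 47.0% and 43.4% in the same order, and the part of these markers in the differences of the module was not tested. Of the tested markers of endothelium, stellate cells, cholangiocytes and of hepatocytes, 1 endothelial gene (Cdh5) was higher and 2 stellate genes (Col1a1 and Col3a1) and 1 hepatocyte gene (Ttr) were lower in PRF 50 than in HFD livers at an unadjusted p under 0.05. In HFD vs ND these were Cps1, Hnf4a and Kdr (lower) and Col1a1 and Col3a1 (higher), and in PRF 50 vs ND they were Spp1 and, of the lists before, Cela1 and Jchain (higher). Col1a1 passed the minimum level through its HFD livers, at 1.72 FPKM on average against 0.57 in ND and 0.95 in PRF 50 livers, and was not tested in PRF 50 vs ND. These markers were named after their values were seen. Apart from Kupffer cells, no marker list had a gene at a limma adjusted p under 0.05 in any comparison.

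No chaperone had an unadjusted p under 0.05 in PRF 50 vs HFD in limma, although Dnajc3 did without HFD mouse 1, Pdia4 without PRF 50 mouse 3 and Hyou1 without PRF 50 mouse 10. PRF 50 mouse 3 lay above every HFD liver in 5 of the 14 chaperones, while PRF 50 mouse 9 did so in 3 and lay below every HFD liver in 7. The shares over all genes were not counted, and nothing is read from these counts. Hspa5 was at 7.43, 7.29 and 7.11 log2(FPKM + 1) in HFD livers and at 7.40, 7.43 and 7.26 in PRF 50 livers, with overlap. This gave a log2 fold change of 0.09 (SE 0.113, 95% confidence interval -0.18 to 0.35, limma adjusted p = 0.714). It was 0.21 after quantile normalization, 0.17 and 0.0042 without HFD mouse 1 and 3, and 0.054 and 0.14 without PRF 50 mouse 9 and 10. Dnajc3 was at 5.51, 5.76 and 5.76 in HFD livers and 5.55, 5.35 and 5.58 in PRF 50 livers, with a log2 fold change of -0.18 (limma adjusted p = 0.395) that was -0.12 without PRF 50 mouse 9 and -0.088 after quantile normalization. Pdia4, the gene of a disulfide isomerase, was at 5.97, 6.04 and 5.96 in HFD livers and 6.01, 5.78 and 5.70 in PRF 50 livers, with a log2 fold change of -0.16 (limma adjusted p = 0.446) that was -0.25 without PRF 50 mouse 3, -0.093 without PRF 50 mouse 10 and -0.051 after quantile normalization. In both genes the groups overlapped. All 14 chaperones had log2 fold changes between -0.20 and 0.16, with 95% confidence intervals between -0.86 and 1.04, the widest being that of Sdf2l1. The median was -0.01 (0.08 after quantile normalization), against -0.02 for all genes. It was -0.13 without PRF 50 mouse 3, 0.072 without PRF 50 mouse 9 and 0.020 without HFD mouse 2, so it had no steady sign.

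The 3 chaperone genes that were lower in HFD than in ND livers at an unadjusted p under 0.05 had small positive values here. Dnajb9 was at 4.98, 4.67 and 4.65 log2(FPKM + 1) in HFD livers and at 4.70, 5.08 and 4.77 in PRF 50 livers. Hyou1 was at 3.35, 3.57 and 3.46 in HFD livers and at 3.71, 3.76 and 3.39 in PRF 50 livers. Manf was at 4.26, 4.44 and 3.95 in HFD livers and at 4.35, 4.40 and 4.28 in PRF 50 livers. The groups overlapped in each of them. Log2 fold changes were 0.08, 0.16 and 0.13, and each 95% confidence interval included 0, with upper ends of 0.40, 0.44 and 0.43.

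Among the sensors, Ern1 was at 2.31, 2.16 and 2.54 log2(FPKM + 1) in HFD livers and at 2.41, 2.80 and 2.66 in PRF 50 livers, with overlap. Its log2 fold change was 0.28 (SE 0.141, limma adjusted p = 0.322), and those of Atf6 and Eif2ak3 were -0.08 and 0.00. In the degradation group, Herpud1 was at 8.15, 7.04 and 7.33 in HFD livers and at 7.33, 7.29 and 7.28 in PRF 50 livers. The PRF 50 mice were closer together than the HFD mice, and the log2 fold change of -0.20 (SE 0.258) became 0.12 without HFD mouse 1. Derl3 was at 0.97, 2.0 and 3.25 in HFD livers and 1.51, 0.31 and 1.65 in PRF 50 livers, with overlap and a log2 fold change of -0.92 (SE 0.586, limma adjusted p = 0.441). It was -1.47 without HFD mouse 1, -0.33 without HFD mouse 3, -0.49 without PRF 50 mouse 9 and -1.42 with 0.1 in place of 1 added to FPKM. Syvn1, Sel1l, Edem1 and Derl1 had log2 fold changes between -0.15 and 0.11.

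Ddit3 had the next smallest p after Xbp1. It was at 3.06, 2.70 and 2.70 log2(FPKM + 1) in HFD livers and at 2.55, 2.57 and 2.41 in PRF 50 livers, so that every PRF 50 liver was below every HFD liver. The log2 fold change was -0.31 (SE 0.121, 95% confidence interval -0.59 to -0.03, limma adjusted p = 0.209), and its unadjusted p was under 0.05 in 2 of 6 limma fits with a mouse left out. Without HFD mouse 1 the difference was -0.19. Its value is uncertain, since Ddit3 overlaps Mars on the other strand in GENCODE M21 and, although a directional library kit is stated, whether strand was used in counting is not given in the sources used here. Its partner and inducer Atf4 was at 5.13, 4.99 and 4.91 in HFD livers and at 5.01, 5.11 and 5.06 in PRF 50 livers. These overlapped, and the log2 fold change was 0.05 (SE 0.0872, 95% confidence interval -0.16 to 0.25).

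The rest of the ATF4/CHOP side overlapped between the groups. Eif4ebp3 was at 4.65, 3.11 and 3.76 log2(FPKM + 1) in HFD livers and at 3.61, 5.05 and 5.93 in PRF 50 livers, the widest spread of the list. Eif4ebp3 had a log2 fold change of 1.02 (SE 0.605, limma adjusted p = 0.404), which was 0.65 without HFD mouse 2, 1.65 without PRF 50 mouse 3 and 0.49 without PRF 50 mouse 10. The gene is on the study's own list for this comparison, drawn from these libraries, so that list is no separate evidence. Eif4ebp1 was at 5.74, 5.39 and 5.42 in HFD livers and at 5.67, 5.82 and 5.58 in PRF 50 livers, with a log2 fold change of 0.17 (SE 0.121, limma adjusted p = 0.477) that was 0.29 without HFD mouse 1, 0.28 after quantile normalization, and 0.11 without HFD mouse 2 and without PRF 50 mouse 9. Trib3 was at 2.78, 1.96 and 2.10 in HFD livers and at 2.28, 2.22 and 1.93 in PRF 50 livers. HFD mouse 1 was above the other 5 mice, and the log2 fold change of -0.14 (SE 0.218) became 0.11 without it. Ppp1r15a, Chac1, Nupr1 and Sesn2 had log2 fold changes between -0.17 and 0.34. The median of the 9 tested genes was 0.05 (-0.00079 without HFD mouse 3, 0.11 without HFD mouse 1 and 0.17 with a minimum of 10 FPKM), with 0 higher and 1 lower at an unadjusted p under 0.05.

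**Figure D3:**
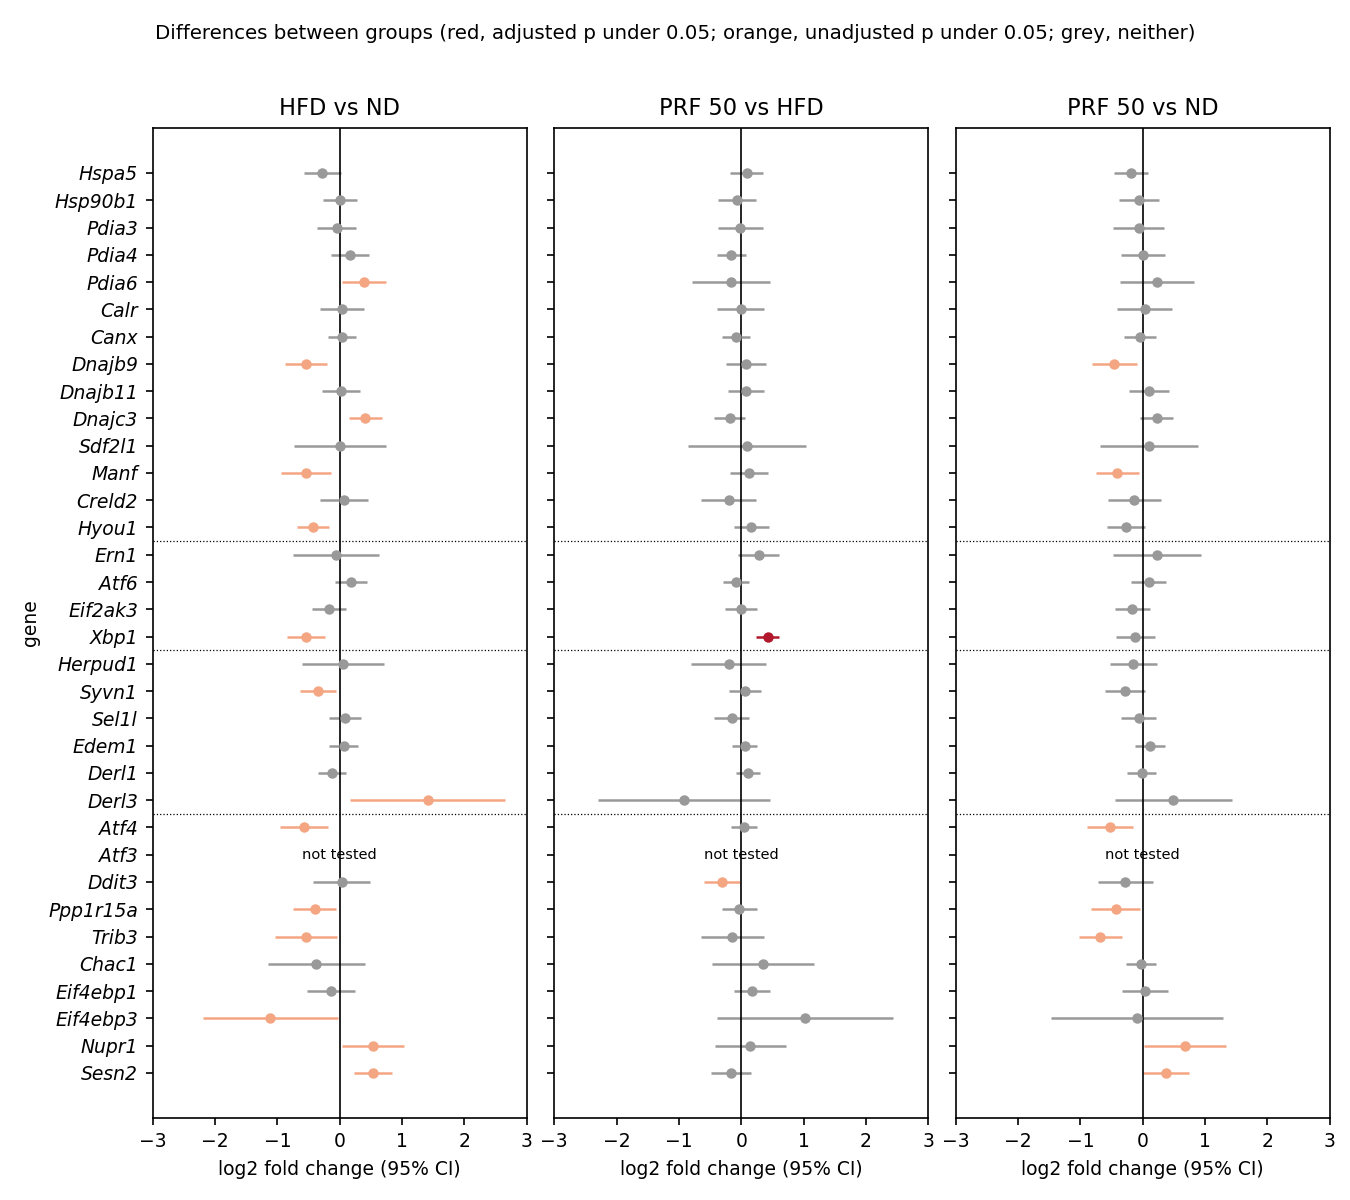
Log2 fold changes with 95% confidence intervals (horizontal axes) of the 34 genes (vertical axis, ordered by role) in the 3 comparisons, with Atf3 not tested. Xbp1 in PRF 50 vs HFD is the 1 red point (adjusted p under 0.05), and orange points (unadjusted p under 0.05) number 14 in HFD vs ND, 7 in PRF 50 vs ND and 1 in PRF 50 vs HFD.

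The last comparison set PRF 50 livers, on the high-fat diet, against ND livers. Atf4 and Trib3 and the chaperone genes Dnajb9 and Manf were lower in PRF 50 livers than in every ND liver, by 0.41 to 0.68 on the log2 scale in size. Hspa5 also lay below every ND liver, with a log2 fold change of -0.19. None of these genes passed the adjusted test. With limma, 0 of the 33 members tested were called, against 0.458% of the 10051 genes tested. At an unadjusted p under 0.05, 2 members were higher (Nupr1 and Sesn2), against 6.06% of all genes, and 5 were lower (Trib3, Atf4, Dnajb9, Manf and Ppp1r15a), against 6.44%. Limma gave 0 members that also passed a fold change of 2, against 1.76% of all genes. In both directions together these were 21.2% of the members and 12.5% of all genes. The 7 members became 3 without ND mouse 6, 2 of 32 tested without PRF 50 mouse 3 and 3 of 32 without PRF 50 mouse 10, while the share of all genes went from 12.5% to 10.5%, 9.59% and 11.9%. After quantile normalization Nupr1 and Sesn2 no longer had an unadjusted p under 0.05, while Dnajc3 did. Without a minimum level, Nupr1, Sesn2 and Ppp1r15a were no longer among these members. The comparison shares its ND mice with HFD vs ND and its PRF 50 mice with PRF 50 vs HFD.

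Trib3 had the smallest p of the module here. It was at 2.86, 3.01 and 2.60 log2(FPKM + 1) in ND livers and at 2.28, 2.22 and 1.93 in PRF 50 livers, without overlap, and its log2 fold change was -0.68 (SE 0.147, 95% confidence interval -1.02 to -0.34, limma adjusted p = 0.107). Atf4 was at 5.92, 5.56 and 5.28 in ND livers and at 5.01, 5.11 and 5.06 in PRF 50 livers. All PRF 50 values lay below all ND values, with a log2 fold change of -0.53 (SE 0.162, limma adjusted p = 0.240). In both genes the unadjusted p was under 0.05 in 6 of 6 limma fits with a mouse left out. Ppp1r15a was at 2.47, 2.54 and 2.03 in ND livers and 1.86, 2.14 and 1.75 in PRF 50 livers, with overlap and a log2 fold change of -0.43 (limma adjusted p = 0.360).

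Nupr1 was at 1.21, 1.93 and 1.19 log2(FPKM + 1) in ND livers and at 2.32, 1.57 and 2.49 in PRF 50 livers, and Sesn2 was at 1.08, 1.38 and 1.08 in ND livers and at 1.62, 1.73 and 1.30 in PRF 50 livers. Both overlapped. Their log2 fold changes were 0.68 (limma adjusted p = 0.390) and 0.37 (limma adjusted p = 0.396). Ddit3, at 3.10, 2.92 and 2.35 in ND livers and 2.55, 2.57 and 2.41 in PRF 50 livers, overlapped as well, with a log2 fold change of -0.28 (SE 0.188, limma adjusted p = 0.561) that was -0.13 without ND mouse 6 and -0.50 without ND mouse 9. Chac1, Eif4ebp1 and Eif4ebp3 had log2 fold changes between -0.09 and 0.04. The median over the 9 tested ATF4/CHOP-side genes was -0.09, and -0.23 without PRF 50 mouse 10.

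Of the chaperones, Dnajb9 was at 5.55, 5.27 and 5.09 log2(FPKM + 1) in ND livers and at 4.70, 5.08 and 4.77 in PRF 50 livers, and Manf at 5.08, 4.59 and 4.60 and at 4.35, 4.40 and 4.28. Neither gene overlapped between the groups, although PRF 50 mouse 9 and ND mouse 9 were close together for Dnajb9. The log2 fold changes were -0.46 (SE 0.156, limma adjusted p = 0.290) and -0.41 (SE 0.148, limma adjusted p = 0.316), the latter -0.25 without ND mouse 6. Hyou1 was at 3.96, 3.98 and 3.73 in ND livers and at 3.71, 3.76 and 3.39 in PRF 50 livers, with overlap, a log2 fold change of -0.27 (-0.16 without PRF 50 mouse 10) and a limma adjusted p of 0.454. Hspa5 was at 7.68, 7.44 and 7.55 in ND livers and at 7.40, 7.43 and 7.26 in PRF 50 livers, all below the ND values. PRF 50 mouse 9 (7.434) and ND mouse 7 (7.438) were almost equal. The log2 fold change of Hspa5 was -0.19 (SE 0.119, limma adjusted p = 0.539). The other 10 chaperones had log2 fold changes between -0.14 and 0.23. Over all 14 the median was -0.05, and 0.09 after quantile normalization and 0.044 without PRF 50 mouse 9, so its sign depends on the scaling and on a single mouse.

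Xbp1 was at 6.90, 6.46 and 6.75 log2(FPKM + 1) in ND livers and at 6.52, 6.61 and 6.63 in PRF 50 livers, and the groups overlapped. The log2 fold change was -0.12 (SE 0.136, 95% confidence interval -0.43 to 0.20, limma adjusted p = 0.749) and turned to 0.04 after quantile normalization. Without ND mouse 6 it was -0.020 and without ND mouse 7 it was -0.24. Herpud1 was at 7.80, 7.24 and 7.32 in ND livers and at 7.33, 7.29 and 7.28 in PRF 50 livers. Its log2 fold change was -0.15 (SE 0.161), or 0.02 without ND mouse 6, the mouse with the highest value. The sensors Ern1, Atf6 and Eif2ak3 and the other 5 degradation genes had log2 fold changes between -0.28 and 0.49.

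Averaged per mouse, the chaperones and the ATF4/CHOP-side genes gave no separation of the groups. The mean of the 14 chaperones was 5.86, 5.88 and 5.65 log2(FPKM + 1) in ND mice 6, 7 and 9, 5.64, 5.86 and 5.73 in HFD mice 1, 2 and 3, and 5.86, 5.60 and 5.73 in PRF 50 mice 3, 9 and 10. Group means were 5.79 ± 0.13, 5.74 ± 0.11 and 5.73 ± 0.13 (SD, n = 3 each). The mean of the 10 ATF4/CHOP-side genes was 3.10, 2.96 and 2.78 in ND mice, 3.05, 2.60 and 2.64 in HFD mice, and 2.77, 2.87 and 2.95 in PRF 50 mice. Group means of this list were 2.94 ± 0.16, 2.76 ± 0.25 and 2.87 ± 0.09. In both lists the differences between group means were smaller than the range within the HFD group.

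Within each group, the mouse with the highest and the mouse with the lowest value were counted over the genes. These counts are descriptions, since in each gene some mouse is the highest and the shares over all genes were not counted. Of the 14 chaperones, HFD mouse 2 was the highest of its group in 10 genes and HFD mouse 1 the lowest in 8. PRF 50 mouse 3 was the highest of its group in 8 genes and PRF 50 mouse 9 the lowest in 8, and ND mouse 9 was the lowest of its group in 9. On the ATF4/CHOP side it was HFD mouse 1 that was the highest of its group, in 7 of 10 genes, while in the chaperones it was the highest in 2. The plot of chaperones against ATF4/CHOP-side genes shows HFD mouse 1 apart from the other HFD mice in this way.

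**Figure D4:**
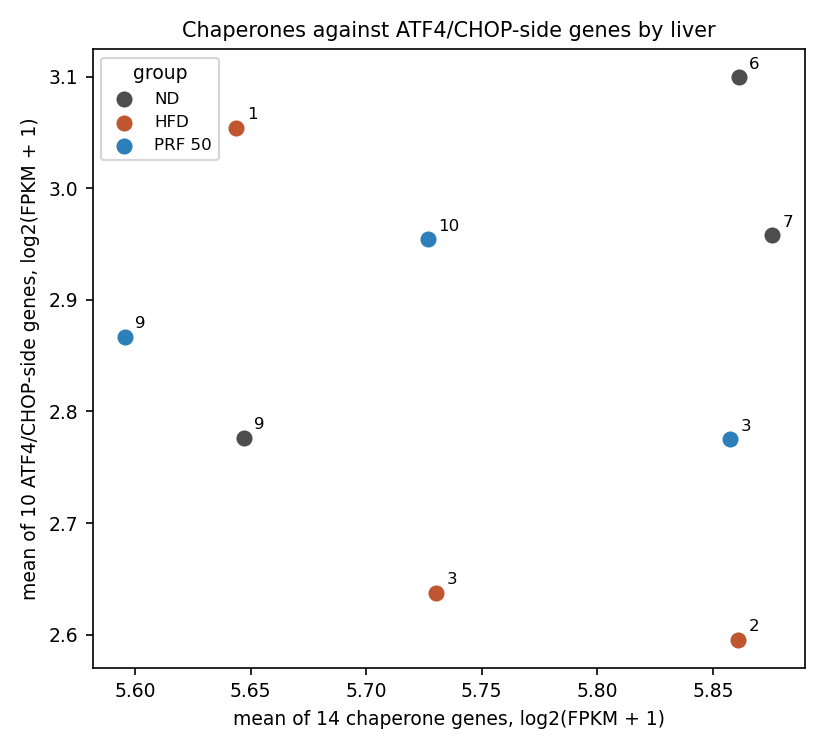
Mean of the 14 chaperone genes (horizontal axis) against the mean of the 10 ATF4/CHOP-side genes (vertical axis), both in log2(FPKM + 1), with 1 point per liver coloured by group and numbered by mouse. The groups overlap on both axes, and HFD mouse 1 (5.64 and 3.05) lies above HFD mice 2 and 3 (2.60 and 2.64) on the vertical axis.

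Wider lists show how genes with related roles behaved. Genes named from them without an adjusted p under 0.05 were chosen after their values were seen, and counts are at an unadjusted p under 0.05. Shares of all genes are given beside those of the lists, and the differences were not tested. Of 28 other genes of ER folding and glycosylation, 3 were lower in HFD than in ND livers (Pdia5, Txndc11 and Ostc) and 4 were higher in PRF 50 than in HFD livers (Pdia5, Fkbp11, Ganab and Prkcsh). These were 10.7% and 14.3% of the list, against 7.26% lower and 8.47% higher among all genes in these comparisons, and after quantile normalization 7 (25.0%, against 9.23% of all genes) were higher in PRF 50 than in HFD livers. Pdia5, a disulfide isomerase gene, had log2 fold changes of -0.61 and 0.90, with limma adjusted p-values of 0.141 and 0.0684. The number of these genes with a positive value in PRF 50 vs HFD was 17, and 19 after quantile normalization. Of 33 tested genes of translocation and vesicle transport, 1 was higher (Sar1b) and 6 were lower in HFD than in ND livers, and 2 were higher (Sec61a1 and Spcs2) and 2 lower (Sar1b and Sec13) in PRF 50 than in HFD livers. In both directions together these were 21.2% and 12.1% of the list, against 15.1% and 20.2% of all genes. Sar1b, which codes for a GTPase of the vesicles that leave the ER, fell by 0.62 on the log2 scale in PRF 50 against HFD livers (limma adjusted p = 0.0336).

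Sar1b was at 8.07, 7.90 and 7.88 log2(FPKM + 1) in HFD livers and at 7.32, 7.22 and 7.47 in PRF 50 livers, without overlap. The limma adjusted p was 0.0609, 0.1004 and 0.0931 without HFD mouse 1, 2 and 3, 0.0961 and 0.0745 without PRF 50 mouse 3 and 9, and 0.0498 without PRF 50 mouse 10, and between 0.0259 and 0.0613 over the other settings. Of 21 other degradation genes, 1 was lower in HFD than in ND livers (Vimp), and 2 were higher in PRF 50 than in HFD livers (Vimp and Os9), which were 4.76% and 9.52% of the list, against 7.26% and 8.47% of all genes in the same directions. After quantile normalization 4 were higher in PRF 50 than in HFD livers, or 19.0% against 9.23% of all genes. Vimp codes for a selenoprotein of the retrotranslocation complex, and it had log2 fold changes of -0.67 and 0.40. Of 28 tested other genes of the UPR and of eIF2 control, 1 was higher and 1 lower in HFD than in ND livers (Nfe2l1 and Creb3l2), and 2 were higher (Creb3l2 and Atf6b) and 2 lower (Nfe2l1 and Eif2s3x) in PRF 50 than in HFD livers, under the shares of all genes at 7.14% and 14.3% of the list. In PRF 50 vs ND, the folding, transport and degradation lists had 0 genes at this level in limma in either direction, and the UPR and eIF2 list had 2 higher (Atf6b and Ddit4) and 1 lower (Eif2b1), or 10.7% in both directions against 12.5% of all genes. None of the genes in these lists other than Sar1b had a limma adjusted p under 0.05 in any comparison.

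A list of genes linked to ATF4, of amino acid supply and of other roles, did not share 1 direction. Fgf21, Tfrc and Xpot are among those of other roles. In HFD vs ND, 3 of 12 tested were higher (Fgf21, Tfrc and Xpot) and 2 lower (Cth and Cbs), and in PRF 50 vs HFD, 2 of 14 were higher (Asns and Cbs) and 4 lower (Fgf21, Tfrc, Xpot and Slc6a9). In PRF 50 vs ND, 1 of 12 was higher (Asns) and 1 lower (Cth). In both directions together these were 41.7%, 42.9% and 16.7% of the list, against 15.1%, 20.2% and 12.5% of all genes. Nothing is read from these shares, since in comparisons with HFD livers Fgf21 and Asns passed the minimum level through the group in which they were high. Fgf21 was in HFD livers at 3.44 FPKM on average against 0.83 in ND and 0.64 in PRF 50 livers. Asns, the gene of asparagine synthetase, was at 1.18, 0.77 and 1.28 log2(FPKM + 1) in ND livers, at 0.36, 0.27 and 0.12 in HFD livers and at 1.65, 2.93 and 1.69 in PRF 50 livers, and the 3 groups did not overlap. Its log2 fold change in PRF 50 against HFD livers was 1.84 (limma adjusted p = 0.0342), or 3.54 with 0.1 in place of 1 added to FPKM, so its size depends on this choice. HFD livers were far under the minimum level, and the gene was tested because of its PRF 50 values. The limma adjusted p was 0.0749 without a minimum level, the highest of a range from 0.0163 over the settings. It was 0.0703, 0.101 and 0.115 without HFD mouse 1, 2 and 3 and 0.0611 and 0.0513 without PRF 50 mouse 3 and 10, and without PRF 50 mouse 9 the gene was under the minimum level. In HFD vs ND it was under this level and was not tested. Of the 20 aminoacyl-tRNA synthetase genes of the cytosol, some of them targets of ATF4, limma had 0 at an unadjusted p under 0.05 in each of the 3 comparisons, and 1 in PRF 50 vs HFD after quantile normalization.

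Chaperones of the cytosol and of mitochondria fold proteins outside the ER. Of 20 tested cytosolic heat shock genes, 19 had a log2 fold change below 0 in PRF 50 vs HFD (18 after quantile normalization), 9 of them at an unadjusted p under 0.05, with a median of -0.18 (-0.14 after quantile normalization). Among all genes 53.0% were below 0 and 11.8% were lower at an unadjusted p under 0.05. In HFD vs ND, 4 of the 20 were higher (Hspa4l, Hsp90aa1, Hsph1 and Fkbp4), or 20.0% against 7.82% of all genes, with a median of 0.18. In PRF 50 vs ND, 1 was higher (Cryab) and 2 lower (Hspa1b, whose PRF 50 livers averaged 0.83 FPKM, and Dnajb1), against 6.06% and 6.44% of all genes, with a median of -0.06 that became 0.02 after quantile normalization. Chordc1, which codes for an HSP90 partner, was at 3.80, 3.53 and 3.95 log2(FPKM + 1) in ND livers, 4.04, 3.91 and 3.99 in HFD livers and 3.56, 3.47 and 3.59 in PRF 50 livers. It fell by 0.44 on the log2 scale between HFD and PRF 50 livers, without overlap (limma adjusted p = 0.0351). Its limma adjusted p was 0.0756, 0.0964 and 0.121 without HFD mouse 1, 2 and 3, 0.0890, 0.0826 and 0.0647 without PRF 50 mouse 3, 9 and 10, and between 0.0259 and 0.0648 over the other settings.

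Of 12 mitochondrial chaperone and protease genes, all had a log2 fold change below 0 in PRF 50 vs HFD (11 after quantile normalization), against 53.0% of all genes. The median was -0.16 and -0.06 after quantile normalization, and 3 genes (25.0%, against 11.8% of all genes) were lower at an unadjusted p under 0.05 (Grpel2, Trap1 and Hspd1). Grpel2, which codes for an exchange factor of mitochondrial HSP70, was at 3.70, 3.61 and 3.61 log2(FPKM + 1) in HFD livers and at 3.19, 3.18 and 2.89 in PRF 50 livers and fell by 0.55 on the log2 scale (limma adjusted p = 0.0388). The groups did not overlap. Without HFD mouse 1, 2 and 3 the limma adjusted p was 0.0884, 0.116 and 0.120, without PRF 50 mouse 3, 9 and 10 it was 0.0833, 0.0639 and 0.0623, and over the other settings it was between 0.0326 and 0.0746. In HFD vs ND, limma had 0 of the 12 at an unadjusted p under 0.05, or 1 after quantile normalization. Trap1 and Grpel2 were lower in PRF 50 vs ND, or 16.7% against 6.44% of all genes. The difference between these lists and the ER chaperones was not tested.

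**Figure D5:**
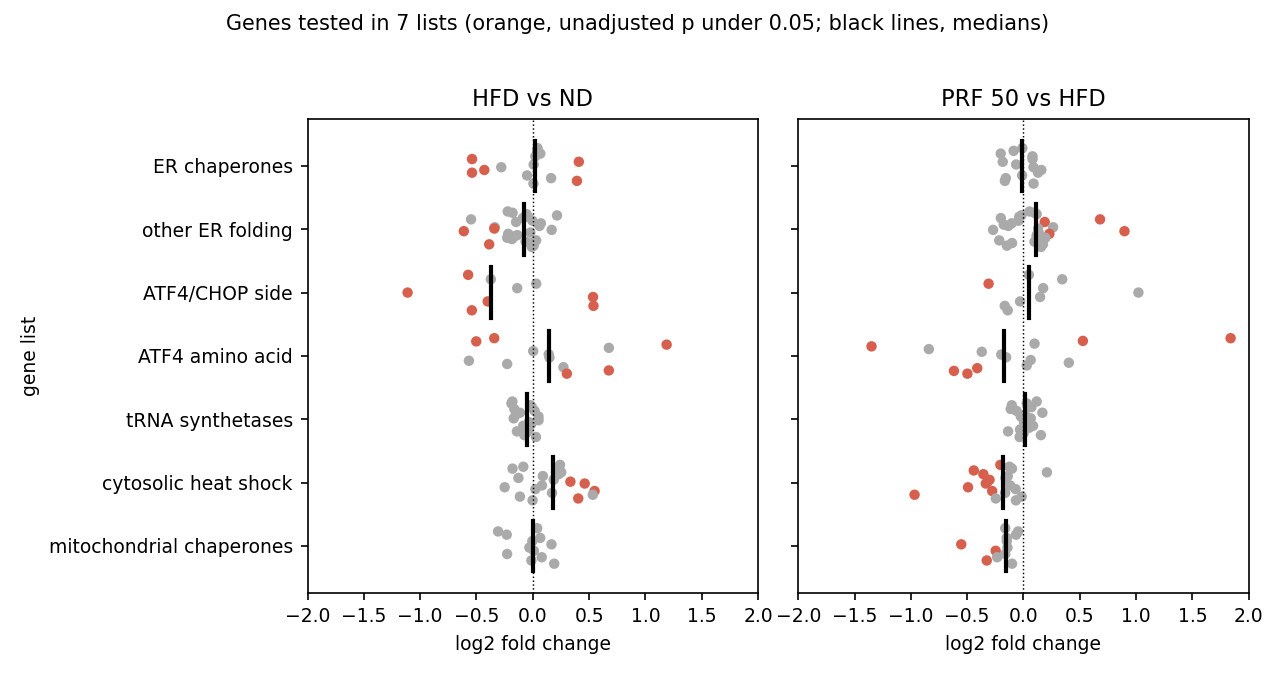
Log2 fold changes (horizontal axes) of the tested genes of 7 lists (vertical axis) in HFD vs ND and PRF 50 vs HFD, with 1 point per gene, orange at an unadjusted p under 0.05, and black lines at the medians. In PRF 50 vs HFD, 19 of 20 cytosolic heat shock genes and 12 of 12 mitochondrial genes lie below 0 (18 and 11 after quantile normalization), while the ER chaperones lie on both sides of 0.

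In the acute-phase list, Lcn2 and Serpina3n rose in HFD against ND livers. Lcn2, the gene of lipocalin 2, was at 1.78, 2.87 and 1.74 log2(FPKM + 1) in ND livers and 4.92, 3.80 and 4.54 in HFD livers, a log2 fold change of 2.29 (limma adjusted p = 0.0309). Serpina3n, a protease inhibitor gene, was at 7.09, 6.88 and 6.83 in ND livers and 7.87, 7.72 and 7.53 in HFD livers, a log2 fold change of 0.77 (limma adjusted p = 0.0376). Neither gene overlapped between the groups. Over the other settings the limma adjusted p was between 0.0234 and 0.484 for Lcn2 and between 0.0105 and 0.248 for Serpina3n, in both genes highest in the fit of all 9 mice. With a mouse left out the call of Lcn2 ended without HFD mouse 1 (limma adjusted p = 0.0611), HFD mouse 3 (0.115), ND mouse 6 (0.0892) and ND mouse 9 (0.0721). That of Serpina3n ended without each mouse, with limma adjusted p-values of 0.0777, 0.154 and 0.0952 without HFD mouse 1, 2 and 3 and 0.0516, 0.158 and 0.0928 without ND mouse 6, 7 and 9. Of the 20 genes, 8 were higher and 1 lower (Orm1) in HFD vs ND at an unadjusted p under 0.05, or 40.0% and 5.0% against 7.82% and 7.26% of all genes. Of the same genes, 8 were higher in PRF 50 vs ND (12 after quantile normalization), or 40.0% against 6.06% of all genes, and PRF 50 mouse 10 again stood apart, with Lcn2 at 2.17 against 9.57 and 7.39 in PRF 50 mice 3 and 9. Kupffer cell markers had 0 of 8 at that level in HFD vs ND in limma and 8 of 8 higher in PRF 50 vs ND, against 6.06% of all genes, where none had an adjusted p under 0.05.

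Some members share sequence with a neighbour. In GENCODE M21, Eif4ebp3 lies within another protein-coding gene on its strand, and Manf overlaps Rbm15b on its strand and Dcaf1 on the other. Pdia3, Pdia6, Syvn1, Ppp1r15a and Ddit3 overlap a protein-coding gene on the other strand only (Catsper2, Atp6v1c2, Mrpl49, Tulp2 and Mars). Calr has 1 named pseudogene. The values of these genes are less certain than those of the others.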

How the data were processed

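Liver mRNA of 9 mice, 3 per group and 1 library each, was measured by poly(A)-selected, directional, paired-end RNA sequencing. Per the submitters' processing notes, reads were checked with FastQC, trimmed with FASTX_Trimmer and BBMap and aligned to mm10 with TopHat, and FPKM were estimated with Cufflinks. The authors state a geometric normalization with EdgeR; versions and annotation are not given. The deposited values used here are log2(FPKM + 1), with the pseudocount inferred from a lowest value of 0, and 6294 symbols were listed at 0 in all mice. They do not give counts, so the absolute depth is unknown.

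Each pair of groups was tested on its 6 mice with limma 3.58.1 (R 4.3.3; lmFit and eBayes with a trend) over genes that averaged 1 FPKM or more, with Benjamini-Hochberg adjustment over all genes tested. The fit of each pair was checked on simulated data. Alternatives were a fit of all 9 mice, leaving out each mouse, eBayes without a trend, quantile normalization, scaling by median of ratios, adding 0.1 in place of 1 to FPKM, and setting the lowest average level at 10 FPKM or at none. Means of lists over genes are descriptions and were not tested. Figures and promoter searches used Python 3.11.15, pandas 2.3.3 and matplotlib 3.10.9.

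Values per mouse were given for members with an adjusted p under 0.05, for the 8 members of smallest p in each comparison and for Hspa5, Xbp1, Atf4, Ddit3, Atf3, Trib3 and Herpud1. Those of Pdia6 and Chac1 were given outside this rule. From wider lists, up to 3 genes per direction and comparison with an adjusted p under 0.05 were named, and any other gene was chosen after its value was seen. The members and lists were chosen with earlier results of these data known.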

Additional observations from a re-analysis of the deposited data

How the results depend on the processing

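With 3 mice per group, most results kept their direction under the alternatives. The count of members with a limma adjusted p under 0.05 in PRF 50 vs HFD was 0 in the fit of all 9 mice and 0 to 0 with a mouse left out. The unadjusted count in PRF 50 vs HFD was 1 in the fit of all 9 mice, 1 with a minimum of 10 FPKM, 4 after quantile normalization and 2 to 5 with a mouse left out. In HFD vs ND it was 9 with a minimum of 10 FPKM, where 23 members were tested, and 7 to 14 with a mouse left out. In PRF 50 vs ND it was 4 without a minimum level, 3 with a minimum of 10 FPKM, where 22 members were tested, and 2 to 9 with a mouse left out. The ATF4/CHOP-side median was -0.38 to -0.090 in HFD vs ND and -0.23 to -0.0034 in PRF 50 vs ND with a mouse left out, and the chaperone median in PRF 50 vs ND was 0.095 after quantile normalization. With a mouse left out, log2 fold changes changed sign in PRF 50 vs HFD for Atf4 (-0.00079 to 0.11), Trib3 (-0.30 to 0.11) and Herpud1 (-0.44 to 0.12). They also did in HFD vs ND for Ddit3 (-0.19 to 0.18) and Herpud1 (-0.27 to 0.28) and in PRF 50 vs ND for Herpud1 (-0.26 to 0.021), and that of Xbp1 in PRF 50 vs ND was 0.042 after quantile normalization. Fewer genes were tested with the higher minimum and fewer mice with a mouse left out; otherwise the cause was not tested. No paired analysis was possible because the groups compared share fewer than 2 mouse numbers and a number names a mouse only within its group.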
